A study of Mus musculus with 17 samples.

Results

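The genes described are 9 markers and regulators of the mouse neural crest, namely Sox10, Foxd3, Tfap2a, Tfap2b, Ets1, Snai2, Erbb3, Ednrb and Sox8, chosen by name from the 41709 gene symbols measured. All 9 were found. Each of the 17 samples was RNA from one whole C57BL/6J embryo. Levels are TPM, a length-corrected share of a library's transcripts. Disp1_CS_INDEL embryos (E9.5, n = 4) had CS on one Disp1 copy and INDEL on the other (Disp1 encodes Dispatched, through which cells let go of lipid-bearing hedgehog ligands), and came from Disp1CS/+ mothers and Disp1INDEL/+ fathers. Disp1_WT embryos (E9.5, n = 4) were wild type. Myo10_m1J embryos (E8.5, n = 5) were homozygous for the m1J allele of Myo10, which encodes myosin X, a motor of filopodia, and came from matings of m1J heterozygotes. Myo10_WT embryos (E8.5, n = 4) were Myo10+/+. The series is about cytonemes, signalling filopodia that carry morphogens, and each mutant was set against its own wild type. Litter membership is not labelled.

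The neural crest arises at the border of the neural plate, leaves the dorsal neural tube by an epithelial to mesenchymal transition and migrates to form peripheral neurons, glia, pigment cells and much of the facial skeleton. AP-2 factors (Tfap2a, Tfap2b) and Foxd3 act early in its specification, Snai2 and Ets1 belong to the network of delamination, and the SoxE factors Sox8 and Sox10 maintain the migrating cells. Ednrb and Erbb3 are the receptors through which crest cells respond to endothelin 3 and to neuregulins. These genes are not exclusive to the crest: Ets1 is also expressed in endothelium, Tfap2a in surface ectoderm, Sox10 and Sox8 in the otic vesicle and Foxd3 in pluripotent cells. In whole embryos, fewer cells of a type and less RNA per cell cannot be told apart.

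The libraries differed in ways that bear on every value below. Structural RNAs (7SL, 7SK, RNase MRP and RNase P) took 0.00524 to 0.0132% of TPM at E9.5 and 29.8 to 44.5% at E8.5, so the other transcripts share a smaller total at E8.5. Age, experiment and this difference in library content cannot be told apart. Differences between the ages are therefore also given after haemoglobin, mitochondrial and structural RNAs were left out and TPM was scaled back to its full total (below, the rescaled values), and after median-of-ratios scaling, which sets the typical gene to no change. Summed TPM of 5 tail bud genes was 6.92 in Disp1_CS_INDEL replicate 1 and 4.70 in Disp1_WT replicate 3, against 80.9 to 135.3 in the other E9.5 embryos, and it was 58.4 in Myo10_WT replicate 1, against 117.3 to 288.2 in the other E8.5 embryos. Disp1_WT replicate 3 also held yolk sac and decidual transcripts (1233 TPM summed over 5 genes). The same sum was 30.8 to 49.6 TPM in Disp1_CS_INDEL, but 389.1 to 1403 TPM in Myo10_m1J and 427.0 to 1427 TPM in Myo10_WT. All E8.5 embryos therefore held yolk sac transcripts. Prl8a2, the decidual gene of the 5, ran from 0.150 to 146.5 TPM in Myo10_m1J, with a median of 0.240 TPM. In Myo10_WT it ran from 0 to 2.83 TPM, with a median of 0.980 TPM. The part of yolk sac and decidual transcripts in the differences between the ages was not tested. The targeted gene Myo10 was lower in Myo10_m1J by a log2 difference of -2.54 (SE 0.18, limma adjusted p = 6.681e-05). Disp1 gave -0.28 in Disp1_CS_INDEL (SE 0.11, limma adjusted p = 1) with overlapping groups, so its level is no check of those labels.

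RefSeq promoter windows, from 250 bases before to 50 after a start on GRCm38.p6, were at hand for 5 of the 9 genes (Ednrb, Foxd3, Sox8, Tfap2a and Tfap2b). Shown are Ednrb, the one window with a match to a motif searched, Tfap2b, the one gene whose groups separated in a mutant comparison, and Foxd3, the one gene not called higher with age in any comparison or scaling. The windows are chr14:103843652-103843951 on the minus strand, chr1:19211804-19212103 on the plus strand and chr4:99656049-99656348 on the plus strand, each written 5′ to 3′ along its gene, with capitals marking an AP-2 half-site pair.
Ednrb: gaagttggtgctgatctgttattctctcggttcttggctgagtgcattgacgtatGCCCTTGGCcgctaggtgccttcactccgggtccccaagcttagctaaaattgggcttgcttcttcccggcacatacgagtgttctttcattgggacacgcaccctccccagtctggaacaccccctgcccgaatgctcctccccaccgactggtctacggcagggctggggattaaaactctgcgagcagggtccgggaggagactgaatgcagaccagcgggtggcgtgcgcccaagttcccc
Tfap2b: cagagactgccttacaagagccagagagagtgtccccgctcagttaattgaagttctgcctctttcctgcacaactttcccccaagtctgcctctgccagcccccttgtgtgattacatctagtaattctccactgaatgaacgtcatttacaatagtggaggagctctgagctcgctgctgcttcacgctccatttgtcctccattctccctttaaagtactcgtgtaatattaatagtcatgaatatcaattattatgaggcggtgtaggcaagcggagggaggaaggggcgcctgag
Foxd3: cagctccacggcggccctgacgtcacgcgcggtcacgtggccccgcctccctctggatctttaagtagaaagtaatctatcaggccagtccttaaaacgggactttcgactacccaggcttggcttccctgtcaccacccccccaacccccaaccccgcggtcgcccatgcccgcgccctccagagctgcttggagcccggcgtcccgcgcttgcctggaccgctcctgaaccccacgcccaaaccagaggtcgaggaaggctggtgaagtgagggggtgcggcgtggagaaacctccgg
Searched on both strands were the AP-2 motif GCCNNNGGC, the SOX motif ACAAAG, the E-box CAGGTG bound by Snail factors, and the GLI motif GACCACCCA, which do not overlap one another here. The Ednrb window held GCCCTTGGC, beginning at -195 from the start, and the AP-2 motif was present in 16.6% of 32851 promoters of the same length. The SOX motif was present in 18.7% of them, the E-box in 20.2% and the GLI motif in 0.253%, and the windows of the 5 genes held no match to these 3. A match is a description of letters in the window.

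Every one of the 9 genes was expressed at E9.5, and their summed level was 160.0 ± 13.5 TPM in Disp1_CS_INDEL (SD, n = 4) and 149.4 ± 4.19 TPM in Disp1_WT (SD, n = 4). At E8.5 the sum was 49.4 ± 14.1 TPM in Myo10_m1J (SD, n = 5) and 54.8 ± 25.0 TPM in Myo10_WT (SD, n = 4). The highest of the 9 at both ages was Ets1, and at E9.5 Ednrb, Sox10 and Snai2 came next. In Disp1_WT the order of mean TPM was Ets1, Ednrb, Sox10, Snai2, Tfap2b, Erbb3, Tfap2a, Sox8 and Foxd3. Of these neighbours, Sox10 and Snai2, and Tfap2b and Erbb3, overlapped between embryos and the others did not. In Disp1_CS_INDEL, Sox10 stood just above Ednrb, with 24.7 and 24.6 TPM, and 2 neighbouring pairs were separate (Snai2 above Tfap2b, and Sox8 above Foxd3). At E8.5 Erbb3 stood second, Sox8 was the lowest, and all neighbours overlapped in both groups.

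**Figure D1:**
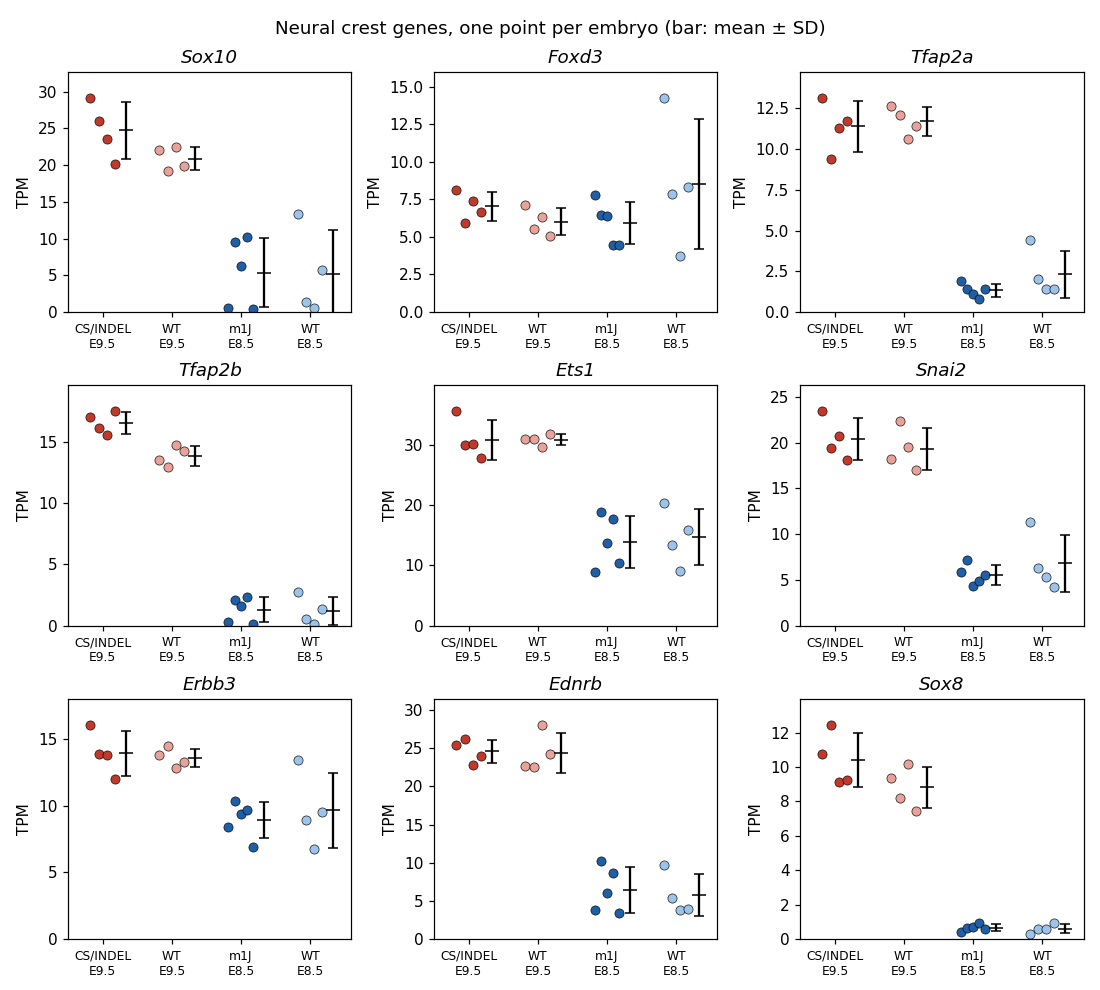
TPM of the 9 genes, one point per embryo, with mean ± SD beside each group (bars cut at 0). Groups from left to right are Disp1_CS_INDEL and Disp1_WT at E9.5, then Myo10_m1J and Myo10_WT at E8.5. All genes but Foxd3 had higher means in both E9.5 groups than in both E8.5 groups, and Sox10 spread from 0.368 to 13.4 TPM among the 9 E8.5 embryos.

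The comparison of Disp1_CS_INDEL with Disp1_WT at E9.5 found no neural crest gene that passed the test, and 1, Tfap2b, whose groups separated. None of the 9 passed the limma test at an adjusted p of 0.05, while 0.0301% of the 13294 genes tested did (1 higher and 3 lower). At an unadjusted p under 0.05 there was 1 of 9, Tfap2b, against 2.26% of all genes. The median log2 difference over the 9 was 0.080, against 0.0097 over all genes, and 7 of the 9 were positive.

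The regulators of specification came first. Tfap2b had 16.99, 16.2, 15.5 and 17.5 TPM in Disp1_CS_INDEL, against 13.5, 12.9, 14.7 and 14.2 TPM in Disp1_WT. All 4 mutants lay above all 4 wild types, a separation that 0.895% of genes showed in this direction. The log2 difference was 0.24 (SE 0.068, 95% interval 0.090 to 0.39, unadjusted p = 0.00522, limma adjusted p = 1), and without the 2 embryos low in tail bud transcripts it was 0.26 (SE 0.084). Tfap2b lies on chromosome 1, as Disp1 does, and any part of this in its level was not tested.

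Its relative Tfap2a, also an AP-2 factor, had 13.2, 9.38, 11.3 and 11.7 TPM in Disp1_CS_INDEL, against 12.6, 12.1, 10.6 and 11.4 TPM in Disp1_WT. The groups overlapped, with a log2 difference of -0.041 (SE 0.10, 95% interval -0.26 to 0.18). Summed markers of surface ectoderm, which also expresses Tfap2a, were 396.3 to 527.4 TPM in Disp1_CS_INDEL and 531.0 to 608.2 TPM in Disp1_WT. Krt8 and Krt18 made up most of these sums, with means of 199.6 and 173.3 TPM in Disp1_CS_INDEL and 247.3 and 202.9 TPM in Disp1_WT. Of the 8 markers 6 gave negative differences and 2 positive. Trp63 averaged 4.96 TPM in Disp1_CS_INDEL and 4.62 TPM in Disp1_WT, and Perp 21.9 TPM in both. The part of surface ectoderm in the level of Tfap2a was not tested. The ratio of Tfap2b to Tfap2a within an embryo ran from 1.29 to 1.72 in Disp1_CS_INDEL and from 1.07 to 1.38 in Disp1_WT, a log2 difference of 0.30 (exact two-sided permutation p = 0.0857, 0.257 after Benjamini-Hochberg adjustment over 12 ratio tests chosen after the values were seen). The ratios of the groups overlapped.

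Foxd3, a forkhead repressor of the premigratory crest, had 8.09, 5.92, 7.42 and 6.68 TPM in Disp1_CS_INDEL, against 7.13, 5.55, 6.32 and 5.05 TPM in Disp1_WT. Each group held embryos inside the range of the other, and the log2 difference was 0.20 (SE 0.12, 95% interval -0.064 to 0.46). Snai2, a zinc finger repressor of epithelial genes, gave 0.080 (SE 0.099, 95% interval -0.14 to 0.30), with 18.1 to 23.5 TPM in Disp1_CS_INDEL and 16.98 to 22.4 TPM in Disp1_WT. Ets1 gave -0.0040 (SE 0.074, 95% interval -0.17 to 0.16), with 27.8 to 35.7 TPM in Disp1_CS_INDEL and 29.7 to 31.9 TPM in Disp1_WT. Summed markers of endothelium, which also expresses Ets1, were 238.4 to 288.2 TPM in Disp1_CS_INDEL and 245.3 to 268.7 TPM in Disp1_WT.

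Sox10, the SoxE factor that marks migrating crest and its glia, had 29.2, 25.9, 23.6 and 20.1 TPM in Disp1_CS_INDEL, against 22.0, 19.2, 22.4 and 19.9 TPM in Disp1_WT. In 3 of the 4 mutants the level was above every wild type, and the fourth lay among them. The log2 difference was 0.22 (SE 0.11, 95% interval -0.010 to 0.46, limma adjusted p = 1). Sox8, its paralogue, had 10.8, 12.5, 9.11 and 9.24 TPM in Disp1_CS_INDEL, against 9.39, 8.23, 10.2 and 7.47 TPM in Disp1_WT. The groups overlapped, and the log2 difference was 0.21 (SE 0.12, 95% interval -0.050 to 0.48). Sox8 stood at 0.369 to 0.481 of Sox10 in Disp1_CS_INDEL and at 0.376 to 0.455 of Sox10 in Disp1_WT (exact two-sided permutation p = 1). Summed otic markers were 46.9 to 52.2 TPM in Disp1_CS_INDEL and 40.9 to 45.5 TPM in Disp1_WT, and their part in the values of Sox10 and Sox8 was not tested.

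The receptors gave differences near 0. Ednrb, the endothelin receptor needed for enteric neurons and pigment cells, had 25.4, 26.2, 22.8 and 24.0 TPM in Disp1_CS_INDEL, against 22.7, 22.5, 28.1 and 24.2 TPM in Disp1_WT, with a log2 difference of 0.016 (SE 0.080, 95% interval -0.16 to 0.19). Erbb3, which binds neuregulin but has little kinase activity of its own, had 16.1, 13.9, 13.8 and 12.0 TPM in Disp1_CS_INDEL, against 13.8, 14.5, 12.9 and 13.3 TPM in Disp1_WT, with a log2 difference of 0.029 (SE 0.087, 95% interval -0.16 to 0.22). For both receptors the groups overlapped. The difference allowed by the 95% interval was at most 0.48 on the log2 scale for any of the 9 genes.

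The ligands and partner receptors did not pass the test in this comparison either (0 of 5 tested). Edn3, the ligand of Ednrb in the crest, had 7.88 ± 0.80 TPM in Disp1_CS_INDEL and 7.51 ± 0.31 TPM in Disp1_WT (SD, n = 4 each). Erbb2, the kinase partner of Erbb3, had 47.5 ± 2.24 TPM in Disp1_CS_INDEL and 48.8 ± 4.71 TPM in Disp1_WT (SD, n = 4 each). Of the other ligands, Edn2, Nrg2 and Nrg3 stayed under 1 TPM in every embryo, and Nrg1 was not analysed here.

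Among the wider crest program, no gene was called in Disp1_CS_INDEL. Plate border genes gave 9 positive differences of 9, with a median of 0.24 and 4 genes whose groups did not overlap (0.895% of all genes separated in this direction), namely Zic1 (0.39, SE 0.092, limma adjusted p = 0.793), Pax7 (0.37, SE 0.12, limma adjusted p = 1), Pax3 (0.36, SE 0.068, limma adjusted p = 0.339) and Msx1 (0.30, SE 0.075, limma adjusted p = 0.907). These transcription factors are also expressed in dorsal neural tube. The other crest specifiers had a median of 0.0030 over 11 genes, and 0 of them separated the groups. Facial ectomesenchyme genes were positive for 7 of 7 with a median of 0.13, and 3 of them, Alx1, Prrx1 and Prrx2, separated the groups, against the same 0.895%. Autonomic and enteric genes had a median of -0.037 over 8 tested, with 2 positive and 6 negative. Among them Phox2a, which specifies autonomic neurons, gave -0.29 (SE 0.081, limma adjusted p = 1). These genes were named after their values were seen.

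The comparison of Myo10_m1J with Myo10_WT at E8.5 found no difference in the neural crest genes beyond the spread between embryos, and that spread was wide. Of the 9 genes 8 were tested, Sox8 being under 1 TPM in every E8.5 embryo, and 0 of 8 passed the limma test, while 0.00796% of the 12560 genes tested did (Myo10 alone). At an unadjusted p under 0.05 there were 0 of 8, against 6.8% of all genes. The median log2 difference was -0.075 over the 8 genes and -0.16 over all genes. No gene of the 8 had groups that did not overlap, against 0.963% of all genes lower and 0.0318% higher.

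**Figure D2:**
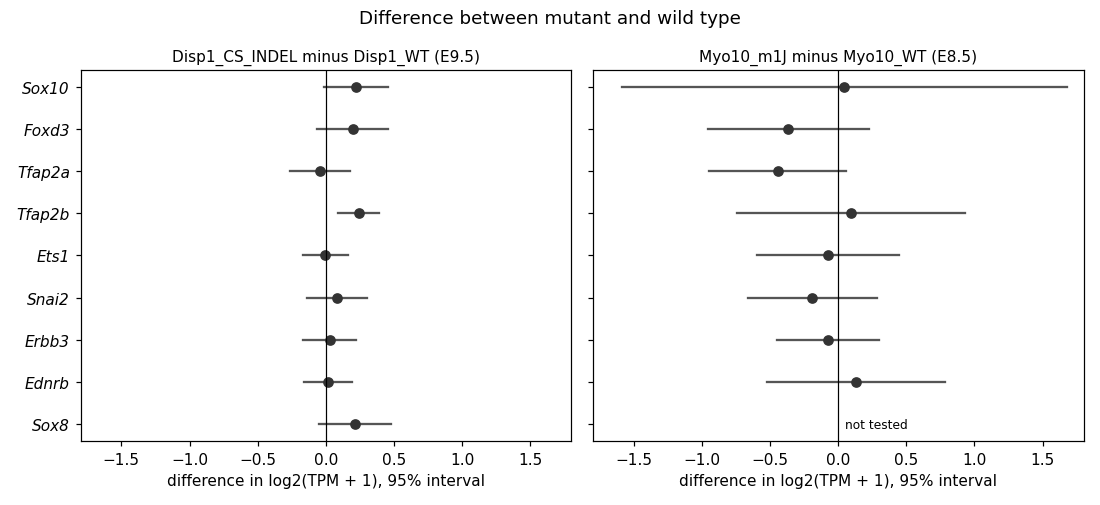
Difference in log2(TPM + 1) between mutant and wild type for each gene, with 95% intervals from limma: Disp1_CS_INDEL minus Disp1_WT on the left, Myo10_m1J minus Myo10_WT on the right. The Tfap2b interval on the left (0.090 to 0.39) is the one that leaves out 0, and the Sox10 interval on the right runs from -1.59 to 1.68.

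Sox10 had 0.511, 9.51, 6.28, 10.2 and 0.368 TPM in Myo10_m1J, against 13.4, 1.36, 0.533 and 5.70 TPM in Myo10_WT. Each genotype held embryos near the bottom and near the top of the range. The log2 difference was 0.046 (SE 0.75, 95% interval -1.59 to 1.68), an interval wide on both sides of 0. Tfap2b had 0.322, 2.10, 1.63, 2.34 and 0.146 TPM in Myo10_m1J, against 2.75, 0.573, 0.103 and 1.34 TPM in Myo10_WT. It ordered the embryos as Sox10 did except among the 3 lowest, and the log2 difference was 0.092 (SE 0.39, 95% interval -0.74 to 0.93).

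Foxd3 had 7.77, 6.45, 6.41, 4.48 and 4.49 TPM in Myo10_m1J, against 14.3, 7.84, 3.71 and 8.30 TPM in Myo10_WT. The highest and the lowest embryo were both wild type, and the log2 difference was -0.37 (SE 0.27, 95% interval -0.96 to 0.23, limma adjusted p = 0.476). Leaving out Myo10_WT replicate 1 made it -0.0996, and leaving out Myo10_WT replicate 3 made it -0.67. Tfap2a had 1.92, 1.43, 1.09, 0.813 and 1.39 TPM in Myo10_m1J, against 4.44, 2.04, 1.42 and 1.40 TPM in Myo10_WT. Here 3 of the 5 mutants lay below every wild type, and the log2 difference was -0.45 (SE 0.23, 95% interval -0.95 to 0.059, limma adjusted p = 0.473), and -0.18 without Myo10_WT replicate 1. Among the 9 E8.5 embryos, Myo10_WT replicate 1, the one low in tail bud transcripts, was highest for Sox10, Foxd3, Tfap2a, Tfap2b, Ets1, Snai2 and Erbb3.

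Ets1 had 8.94, 18.8, 13.8, 17.8 and 10.3 TPM in Myo10_m1J, against 20.4, 13.4, 9.14 and 15.8 TPM in Myo10_WT. The groups overlapped nearly throughout, with a log2 difference of -0.074 (SE 0.24, 95% interval -0.59 to 0.44), 0.022 after rescaling and 0.10 after median-of-ratios scaling. Snai2 gave -0.19 (SE 0.22), with 4.37 to 7.15 TPM in Myo10_m1J and 4.21 to 11.3 TPM in Myo10_WT, and 0.057 without Myo10_WT replicate 1. Erbb3 gave -0.075 (SE 0.17), with 6.89 to 10.3 TPM in Myo10_m1J and 6.74 to 13.5 TPM in Myo10_WT, and 0.019 after rescaling. Ednrb had 3.79, 10.2, 6.05, 8.65 and 3.47 TPM in Myo10_m1J, against 9.70, 5.34, 3.85 and 3.94 TPM in Myo10_WT, and both groups covered nearly the same range (log2 difference 0.13, SE 0.30, 95% interval -0.52 to 0.79). Sox8 had 0.652 ± 0.195 TPM in Myo10_m1J (SD, n = 5) and 0.609 ± 0.245 TPM in Myo10_WT (SD, n = 4).

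Of the other crest lists 0 genes were called in Myo10_m1J. The other crest specifiers gave 10 negative differences of 10 tested, with a median of -0.23, and -0.13 after rescaling, against -0.16 and -0.073 over all genes. Of these 10, 4 had an unadjusted p under 0.05 (6.8% of all genes, with 811 lower and 43 higher). Twist1, a regulator of mesenchyme, lay lower in all mutants, as 0.963% of all genes did (-0.35, SE 0.10, limma adjusted p = 0.473). The plate border list gave 8 negative of 9, with a median of -0.21. When the Disp1 and Myo10 effects were set against each other in a fit of all 17 embryos, 0 of the 9 genes passed the limma test and 0 had an unadjusted p under 0.05, while 0.0216% of 13910 genes passed and 4.95% had such a p. The largest differences of effects were 0.56 for Foxd3 (SE 0.34) and 0.40 for Tfap2a (SE 0.28), both with a limma adjusted p of 0.586. Without Myo10_WT replicate 1 they were 0.30 for Foxd3 and 0.14 for Tfap2a, and without Myo10_WT replicate 3 that of Foxd3 was 0.86.

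Between the ages the neural crest genes formed a graded series, with wild-type ratios of means from 14.5-fold for Sox8 (9.79-fold after rescaling) to 0.705-fold for Foxd3 (0.485-fold after rescaling). In the wild types (Disp1_WT at E9.5 minus Myo10_WT at E8.5), 8 of 9 passed the limma test as higher and 0 as lower, while 69.4% of the 13397 genes tested were called higher and 10.2% lower. After rescaling 7 of 9 were higher and 1 lower, against 43.4% and 27.3% of all genes, and after median-of-ratios scaling again 7 and 1, against 38.2% and 34.7%. The median log2 difference of the 9 was 1.99, and 1.53 after rescaling, beside 0.62 and 0.14 (0.031 after median-of-ratios scaling) over all genes. Groups did not overlap for 7 of the 9 genes, all higher at E9.5, as for 66.1% of all genes. Sox8, Sox10 and Tfap2b passed the filter on low values through their E9.5 embryos, having fewer than 4 wild-type E8.5 embryos at 1 TPM, so these counts are a description and no support.

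The largest log2 difference was that of Tfap2b. Its mean was 13.8 ± 0.79 TPM in Disp1_WT and 1.19 ± 1.16 TPM in Myo10_WT (SD, n = 4 each), an 11.6-fold ratio of means that was 8.01-fold after rescaling. The log2 difference was 2.91 (SE 0.30), and 2.70 after rescaling. Since Tfap2b passed the filter through its E9.5 embryos, its test is that of the fit with no filter (SE 0.33, limma adjusted p = 7.764e-05). Tfap2a averaged 11.7 ± 0.86 TPM in Disp1_WT and 2.32 ± 1.44 TPM in Myo10_WT (SD, n = 4 each), with a log2 difference of 2.02 (SE 0.23), and 1.65 after rescaling. For both AP-2 genes every E9.5 embryo lay above every E8.5 one. The ratio of Tfap2b to Tfap2a ran from 1.07 to 1.38 in Disp1_WT and from 0.0725 to 0.956 in Myo10_WT (exact two-sided permutation p = 0.0286, the smallest this design allows, 0.114 after adjustment over 12 ratio tests). This ratio does not depend on library scaling.

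Sox8 averaged 8.82 ± 1.21 TPM in Disp1_WT and 0.609 ± 0.245 TPM in Myo10_WT (SD, n = 4 each), a 14.5-fold ratio of means, 9.79-fold after rescaling. The log2 difference was 2.61 (SE 0.14), which adding 1 to TPM keeps below the ratio of means. Sox10 averaged 20.9 ± 1.59 TPM in Disp1_WT and 5.24 ± 5.87 TPM in Myo10_WT (SD, n = 4 each), with a log2 difference of 2.34 (SE 0.55), and 1.98 after rescaling. With no filter on low values both SoxE genes were called higher, with a limma adjusted p of 1.799e-06 for Sox8 and 0.0106 for Sox10. Sox10 was already at 13.4 TPM in one E8.5 wild type while Sox8 was under 1 TPM in all. The ratio of Sox8 to Sox10 ran from 0.376 to 0.455 in Disp1_WT and from 0.0241 to 1.14 in Myo10_WT, and the ratios overlapped (exact two-sided permutation p = 0.571).

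Of the receptors, Ednrb rose and Erbb3 depended on the scaling. Ednrb averaged 24.4 ± 2.61 TPM in Disp1_WT and 5.71 ± 2.75 TPM in Myo10_WT (SD, n = 4 each), with a log2 difference of 1.99 (SE 0.22), and 1.53 after rescaling. Erbb3 averaged 13.6 ± 0.70 TPM in Disp1_WT and 9.66 ± 2.80 TPM in Myo10_WT (SD, n = 4 each). Its log2 difference was 0.49 (SE 0.17, limma adjusted p = 0.0178), but -0.018 after rescaling and -0.12 after median-of-ratios scaling, neither of them called. Snai2 rose by 1.45 (SE 0.22), and by 0.97 after rescaling, with 19.3 ± 2.31 TPM in Disp1_WT and 6.80 ± 3.14 TPM in Myo10_WT (SD, n = 4 each). Ets1 rose by 1.07 (SE 0.18), and by 0.56 after rescaling, with 30.9 ± 0.89 TPM in Disp1_WT and 14.7 ± 4.70 TPM in Myo10_WT (SD, n = 4 each). The summed level of endothelial markers moved the same way, with 245.3 to 268.7 TPM in Disp1_WT and 81.2 to 137.7 TPM in Myo10_WT. Of the 8 markers 6 gave positive differences and 2 negative, and 2 were called lower after rescaling. Kdr averaged 29.5 TPM in Disp1_WT and 32.3 TPM in Myo10_WT, and Tek 20.8 and 24.1 TPM. The part of endothelium in the rise of Ets1 was not tested.

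Foxd3 was the exception. It averaged 6.01 ± 0.91 TPM in Disp1_WT and 8.53 ± 4.35 TPM in Myo10_WT (SD, n = 4 each), with a log2 difference of -0.33 (SE 0.28, limma adjusted p = 0.298). After rescaling it fell by 0.83 (SE 0.30, limma adjusted p = 0.0291), after median-of-ratios scaling by 0.90 (SE 0.27, limma adjusted p = 0.0125), and without Myo10_WT replicate 3, its lowest E8.5 embryo, by 0.63 (SE 0.20, limma adjusted p = 0.0148). Without Disp1_WT replicate 3 and Myo10_WT replicate 1, the libraries low in tail bud transcripts, the difference was -0.089 (SE 0.21, limma adjusted p = 0.709). The ratio of Sox10 to Foxd3 within an embryo ran from 3.09 to 3.94 in Disp1_WT and from 0.144 to 0.937 in Myo10_WT. Every E9.5 wild type held more Sox10 than Foxd3 and every E8.5 wild type less (exact two-sided permutation p = 0.0286, the smallest this design allows, 0.114 after adjustment over 12 ratio tests).

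**Figure D3:**
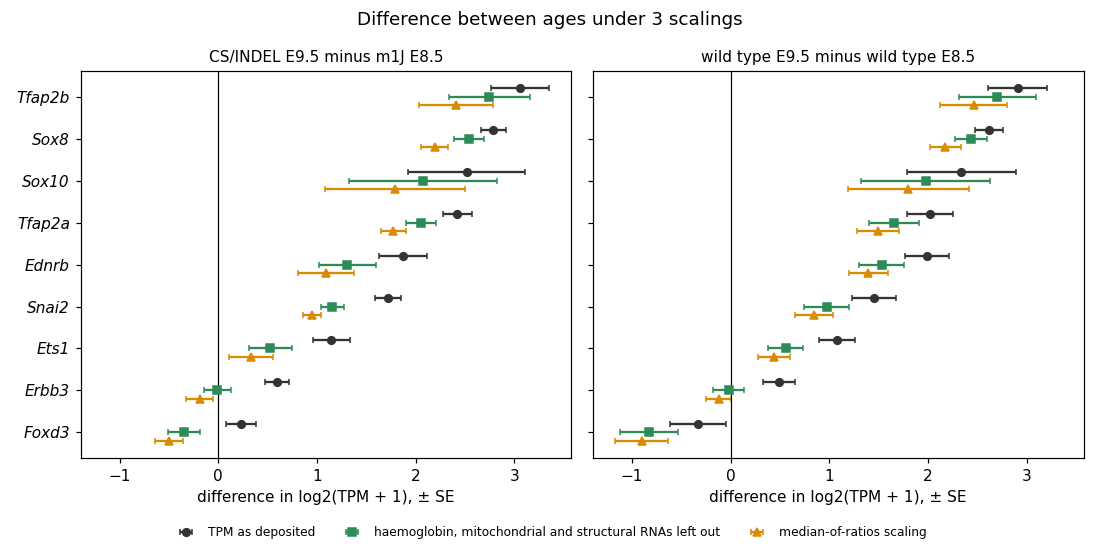
Difference in log2(TPM + 1) between E9.5 and E8.5 with SE for the 9 genes, in the mutants (Disp1_CS_INDEL minus Myo10_m1J, left) and in the wild types (Disp1_WT minus Myo10_WT, right), under 3 scalings. Tfap2b, Sox8, Sox10, Tfap2a, Ednrb, Snai2 and Ets1 lie above 0 in all 6 cases, though Ets1 loses its call in the mutants under both other scalings, while Erbb3 and Foxd3 change side or call with the scaling.

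The mutants, which share no library with the wild types, gave a like series, in which mutation too cannot be told apart from age. Here 8 of 9 genes were called higher and 0 lower, while 77.5% of 13359 genes were called higher and 8.28% lower. After rescaling 6 were called higher and 0 lower, against 48.9% and 24.6% of all genes, and after median-of-ratios scaling 6 higher and 1 lower, against 38.1% and 34.8%. The log2 differences were 3.06 for Tfap2b (SE 0.29), 2.78 for Sox8 (SE 0.13) and 2.52 for Sox10 (SE 0.59). Those of Tfap2a (2.42, SE 0.14), Ednrb (1.88, SE 0.24) and Snai2 (1.72, SE 0.13) were still called after rescaling. As in the wild types, Sox8, Sox10 and Tfap2b passed the filter through their E9.5 embryos, so the counts above are a description and no support. With no filter and no rescaling their limma adjusted p-values were 1.642e-07 for Sox8, 0.00816 for Sox10 and 2.009e-05 for Tfap2b. Ets1 gave 1.14 (SE 0.19), and 0.53 after rescaling (limma adjusted p = 0.0502) and 0.33 after median-of-ratios scaling (limma adjusted p = 0.197), neither of them called. Erbb3 gave 0.59 (SE 0.12), and -0.0083 after rescaling. Foxd3 gave 0.23 (SE 0.15), -0.35 after rescaling (limma adjusted p = 0.0701) and -0.50 after median-of-ratios scaling (limma adjusted p = 0.00901). The ratio of Sox10 to Foxd3 ran from 3.01 to 4.38 in Disp1_CS_INDEL and from 0.0657 to 2.27 in Myo10_m1J (exact two-sided permutation p = 0.0159, the smallest this design allows, 0.114 after adjustment over 12 ratio tests). The ratio of Tfap2b to Tfap2a, unlike in the wild types, overlapped between the ages, running from 1.29 to 1.72 in Disp1_CS_INDEL and from 0.105 to 2.88 in Myo10_m1J (exact two-sided permutation p = 0.460, 0.816 after adjustment over 12 ratio tests).

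The rest of the crest program was read beside the 9 genes in the wild types, where 69.4% of all genes were called higher and 10.2% lower, and 43.4% and 27.3% after rescaling. Zic1, Edn1, Neurog1, Neurog2, Barx1, Dlx2, Mitf, Emcn, Trp63, Myog and Myf5, named below, had fewer than 4 E8.5 embryos at 1 TPM and passed the filter on low values through their E9.5 embryos, as 11.2% of all genes did, so the counts of their lists are a description. Of the ligands and partner receptors 5 of 5 tested were called higher at E9.5, and 3 after rescaling. Edn3 averaged 7.51 ± 0.31 TPM in Disp1_WT and 1.79 ± 0.64 TPM in Myo10_WT (SD, n = 4 each), with a log2 difference of 1.64 (SE 0.16), and 1.29 after rescaling. Edn1, the ligand that patterns the jaw, rose by 1.42 (SE 0.29), and its receptor Ednra by 1.33 (SE 0.17). Ednra stayed called after rescaling, while for Edn1, which passed the filter through E9.5 embryos, the rise is a description. Ece1, which cleaves endothelin precursors, gave 0.72 (SE 0.18), and 0.17 after rescaling, where it was not called. Erbb2 gave 0.64 (SE 0.13), and 0.097 after rescaling, also not called, so Erbb2 and Erbb3 both lost their call with the scaling.

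Other crest specifiers were called higher for 10 of 11 (8 after rescaling, with 1 lower), led by Snai1 (2.12, SE 0.13), a relative of Snai2, and Sox9 (1.91, SE 0.25), the third SoxE gene. Plate border genes were called higher for 6 of 9 (4 after rescaling, with 1 lower), shares close to those of all genes, led by Zic1 (4.44, SE 0.30) and Dlx5 (2.11, SE 0.18). Migration receptors were mixed, with 4 of 8 higher and 2 lower, and 0 higher and 5 lower after rescaling. Those called lower were Epha4 (-0.77, SE 0.080) and Nrp1 (-0.41, SE 0.13), receptors for ephrins and semaphorins, and those with the largest called rises, Ephb2 (0.64, SE 0.12) and Nrp2 (0.56, SE 0.13), lost their call after rescaling.

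Among the genes of crest derivatives, read against the same 69.4% of all genes (43.4% after rescaling), the lists differed. Facial ectomesenchyme genes were called higher for 7 of 7 under each scaling, led by Barx1 (4.34, SE 0.15) and Dlx2 (3.72, SE 0.15). Of these 7, 3 (Dlx1, Dlx2 and Barx1) passed the filter through E9.5 embryos, so the count is a description. Sensory neuron genes were called higher for 5 of 5 tested (4 after rescaling), of which 4 passed the filter through E9.5 embryos, led by Neurog1 (4.38, SE 0.15) and Neurog2 (3.66, SE 0.18), the proneural factors of sensory ganglia. Autonomic and enteric genes were called higher for 8 of 8 tested (5 after rescaling), of which 4 passed the filter through E9.5 embryos. Glial precursor genes were called higher for 4 of 5 tested (2 after rescaling, a share near that of all genes), led by Fabp7 (3.00, SE 0.23) and Ngfr (1.26, SE 0.21). Of the 7 pigment cell genes 4 were under 1 TPM in every embryo, Mitf was called higher (0.64, SE 0.13) and Pmel lower (-0.29, SE 0.12). Kit, also expressed in blood and germ cells, averaged 10.3 ± 1.26 TPM in Disp1_WT and 10.8 ± 1.26 TPM in Myo10_WT (SD, n = 4 each), and was called lower after rescaling (-0.58), as Pmel was. Several of these genes are also expressed in the central nervous system or in mesoderm.

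Lists for other tissues, some of which express members of the 9, were read against the same shares of all genes. Endothelial genes were called higher for 6 of 8 (6 after rescaling, with 2 lower), led by Cldn5 (2.60, SE 0.13) and Emcn (2.53, SE 0.24). Neural progenitor genes were called higher for 6 of 6 (6 after rescaling), led by Hes5 (3.49, SE 0.27) and Nes (2.74, SE 0.17). Otic genes were called higher for 3 of 4 tested (2 after rescaling), among them Eya1 (1.22, SE 0.19). Of these 4, 2 (Pax2 and Pax8) passed the filter through E9.5 embryos. Summed levels of the otic genes were 40.9 to 45.5 TPM in Disp1_WT and 10.3 to 28.5 TPM in Myo10_WT. Muscle precursor genes were called higher for 4 of 6 (4 after rescaling), led by Myog (3.39, SE 0.19) and Myf5 (1.96, SE 0.15), with Met lower (-0.59, SE 0.11). Of these 6, 3 passed the filter through E9.5 embryos. Surface ectoderm genes went both ways, with Trp63 (1.94, SE 0.13) and Perp (1.51, SE 0.12) higher and 5 lower (6 after rescaling), led by Krt18 (-0.93, SE 0.11) and Krt8 (-0.89, SE 0.13). The part of these tissues in the levels of the 9 genes was not tested.

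Among the 9 E8.5 embryos the genes split by how much they varied. The highest value over the lowest was 36.3-fold for Sox10 and 26.8-fold for Tfap2b, 5.46-fold for Tfap2a, 3.85-fold for Foxd3, and from 2.00-fold (Erbb3) to 2.95-fold (Ednrb) for the other genes. Across the 8 E9.5 embryos the same quotient lay between 1.25 for Ednrb and 1.67 for Sox8. The 4 lowest embryos for Sox10, in both genotypes, were Myo10_m1J replicates 1 and 5 and Myo10_WT replicates 2 and 3. The same 4 were the lowest for Tfap2b, Ets1 and Erbb3, which is 3 of the other 7 tested genes, against 2.04% of all 12560 genes tested. Ednrb shared 3 of them, Foxd3 2, and Tfap2a and Snai2 1 each.

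Other list genes with the same 4 lowest embryos included 3 of 6 neural progenitor genes (Nes, Pax6 and Hes5), 3 of 8 endothelial genes (Cdh5, Emcn and Cldn5), and Edn1 and Edn3 of the 5 endothelin and neuregulin partners tested. No other crest specifier or migration receptor did so. Myo10_WT replicate 1 was highest for Foxd3, Tfap2a and Snai2 as well as for Sox10, Tfap2b, Ets1 and Erbb3. Below it the order of embryos differed between genes. Myo10_m1J replicate 4 came next for Sox10 (10.2 TPM) and Tfap2b (2.34 TPM), but was the lowest for Tfap2a (0.813 TPM). The labels give no stage finer than the day, and the part of stage within E8.5 was not tested.

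**Figure D4:**
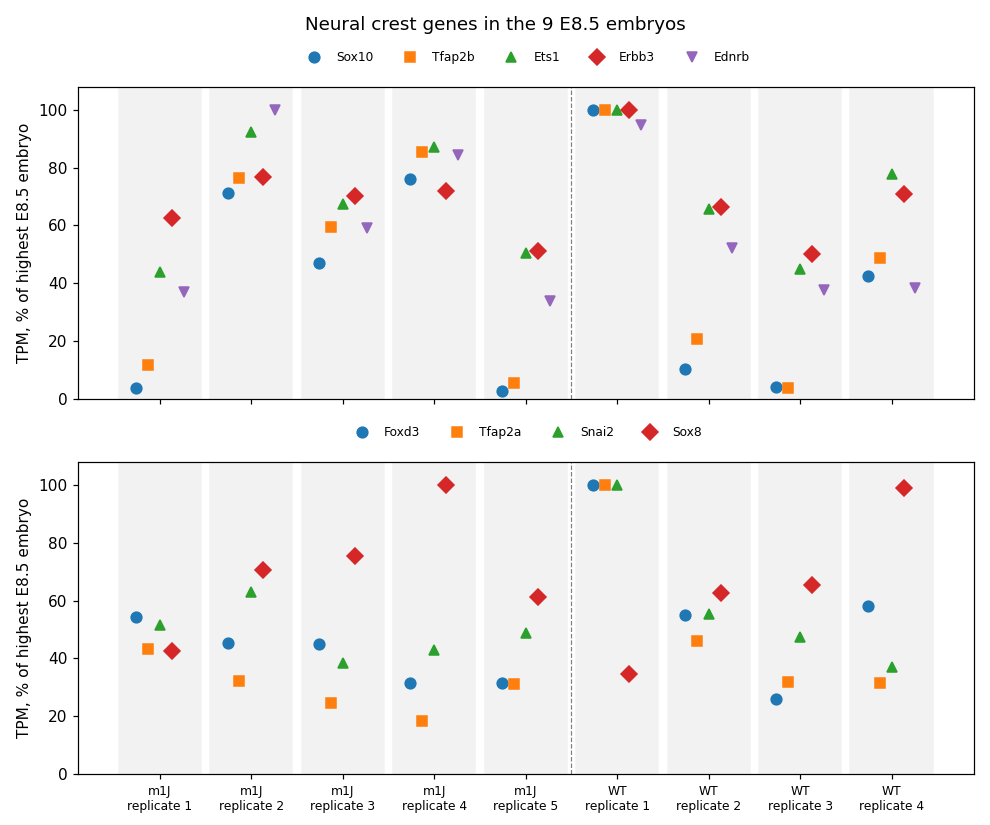
TPM of each gene in the 9 E8.5 embryos as a percentage of its highest embryo, Myo10_m1J to the left of the dashed line and Myo10_WT to the right. Sox10 and Tfap2b drop furthest in the same 4 embryos (Myo10_m1J replicates 1 and 5, Myo10_WT replicates 2 and 3), and the genes of the lower panel have other sets of lowest embryos. All genes but Ednrb and Sox8 are highest in Myo10_WT replicate 1.

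Likeness between embryos was measured as Pearson's r of log2(TPM + 1) with group means taken away, over 17 embryos and 13204 genes, as a description in which the E8.5 embryos weigh most and depth, stage and tissue content are shared by all genes of a library. Among the 9 genes the highest values were 0.98 for Sox10 with Tfap2b, 0.94 for Sox10 with Ets1 and 0.93 for Tfap2b with Ets1. Tfap2a was most like Snai2 (0.84) and Foxd3 (0.77), and least like Sox8 (-0.71). Sox10 with Tfap2a gave 0.15.

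Over all genes, those most like Sox10 were Casq1 (0.99), Tnni3 (0.99) and Tfap2b (0.98). Casq1 and Tnni3 are genes of striated muscle. Tnni3 had 0.495, 4.44, 2.92, 4.84 and 0.737 TPM in Myo10_m1J, against 4.68, 0.849, 0.236 and 2.97 TPM in Myo10_WT, and its 2 lowest embryos in each genotype were those of Sox10. The gene most like Foxd3 was Fezf1 (0.96), that most like Tfap2a was Wasf1 (0.97), and that most like Tfap2b was Sox10. For Ets1 it was Sdc3 (0.97), for Snai2 Flt1 (0.94), for Erbb3 Spon1 (0.97), for Ednrb Alx4 (0.93) and for Sox8 Lgi4 (0.88). Fezf1 had 10.1 TPM in Myo10_WT replicate 1, where Foxd3 was highest too.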

How the data were processed

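RNA from single whole embryos was extracted with a micro column kit and sequenced on a NovaSeq instrument after TruSeq library preparation, per the labels' protocols. The authors deposited TPM, one column per embryo, all with the same sum. The submitters' processing notes name the build GRCm39 (mm39), with the aligner, the quantifier and the gene models not given in the sources used here. From TPM the depth is unknown and no counting interval is given.

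Groups came from the sample titles, which write Myo10 as MYOX. A gene entered a comparison with 4 or more libraries at 1 TPM or above, and was tested as log2(TPM + 1), which understates the fold of low genes, with limma 3.58.1 in R 4.3.3 (moderated test, mean-variance trend, Benjamini-Hochberg over all tested genes, called at 0.05). Tests are two-sided, and p-values measure the spread between single embryos. Ratios were compared with exact permutation tests (scipy 1.17.1). The test was also run on simulated data, in which noise was independent between genes and embryos. Those data held no difference in library content between groups, so that run cannot speak to such a difference.

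The 9 genes, the lists and the tests were chosen with earlier results of these data known. Besides the 9, the targeted genes, the 2 largest called changes each way per list in the wild-type age comparison, the endothelin and neuregulin partners and the genes most like each member were named, though some of these genes are not reported here; further names were picked after their values were seen. Replicate numbers were not used as pairs in the main fits, and whether they pair embryos is unknown. The alternatives tried were both scalings, a lower pseudocount (0.1), filtering on a mean TPM of 5 or not at all, an untrended variance, a joint fit of the 4 groups, blocking on replicate number, and fits without the libraries low in tail bud transcripts or without each library in turn. Ratios were added after seeing the data. Promoters came from a RefSeq table of GRCm38.p6. No sample was left out.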

Additional observations from a re-analysis of the deposited data

How the results depend on the processing

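No neural crest gene was called in either mutant comparison, or in the difference of their effects, under any alternative run. In the wild-type age comparison 7 or 8 were called higher under every alternative, and in the mutant age comparison 6 to 8. One gene, Foxd3, was called lower with median-of-ratios scaling in both age comparisons, and, in the wild types, 1 was with abundant RNAs left out and 0 to 1 when single libraries were left out.

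Gene counts moved more. Against 1 higher and 3 lower in the Disp1 comparison stood 1 lower with no filter and in 1 fit of all libraries, 0 higher at a mean TPM of 5 and without the libraries low in tail bud transcripts, 2 higher and 6 lower with median-of-ratios scaling, and 0 to 1 higher and 1 to 2 lower when single libraries were left out. In the Myo10 comparison (0 higher, 1 lower) there were 2 lower with no filter, and 0 to 1 higher and 1 to 2 lower when single libraries were left out. The age comparison of wild types (9304 higher, 1364 lower) gave 2139 lower with no filter, 5114 higher and 4643 lower with median-of-ratios scaling, and 5797 and 3646 with abundant RNAs left out. That of mutants (10349 higher, 1106 lower) gave 1667 lower with no filter, 711 at a mean TPM of 5, 5090 higher and 4644 lower with median-of-ratios scaling, and 6513 and 3280 with abundant RNAs left out. The difference of the effects (2 higher, 1 lower) gave 6 and 2 with no filter, 1 higher at a mean TPM of 5, 1 and 0 without the libraries low in tail bud transcripts, and 1 to 3 higher when single libraries were left out. The cause of these moves was not tested.

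Signs turned for uncalled log2 differences near 0 and for the age differences of Erbb3 and Foxd3. Median-of-ratios scaling turned Ets1 (0.10) and Erbb3 (0.093) in the Myo10 comparison, Ets1 (-0.11) and Erbb3 (-0.067) in the difference of effects, Erbb3 with age in wild types (-0.12) and mutants (-0.19), and Foxd3 with age in mutants (-0.50). Leaving out abundant RNAs turned Ets1 (0.022) and Erbb3 (0.019) in the Myo10 comparison, Ets1 (-0.027) in the difference, Erbb3 with age in wild types (-0.018) and mutants (-0.0083), and Foxd3 with age in mutants (-0.35). A pseudocount of 0.1 turned Sox10 in the Myo10 comparison (-0.045). Leaving out the libraries low in tail bud transcripts turned Erbb3 in the Disp1 comparison (-0.062), Ets1 (0.092), Snai2 (0.057) and Erbb3 (0.083) in the Myo10 comparison, and Sox10 (-0.45), Tfap2b (-0.14), Ets1 (-0.18), Snai2 (-0.034) and Erbb3 (-0.15) in the difference.

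With single libraries left out, the Disp1 differences ran from -0.11 to 0.041 for Tfap2a, -0.072 to 0.043 for Ets1, -0.038 to 0.094 for Erbb3 and -0.0196 to 0.083 for Ednrb. The Myo10 differences ran from -0.67 to -0.0996 for Foxd3, -0.57 to -0.18 for Tfap2a, -0.45 to 0.62 for Sox10, -0.19 to 0.40 for Tfap2b, -0.27 to 0.092 for Ets1, -0.36 to 0.057 for Snai2, -0.22 to 0.083 for Erbb3 and -0.039 to 0.38 for Ednrb. The differences of effects ran from 0.30 to 0.86 for Foxd3, 0.14 to 0.53 for Tfap2a, -0.40 to 0.68 for Sox10, -0.16 to 0.43 for Tfap2b, -0.096 to 0.26 for Ets1, -0.054 to 0.25 for Erbb3 and -0.37 to 0.055 for Ednrb.

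Deviations of embryos of the same replicate number gave r from -0.24 to 0.35 in the Disp1 comparison and from -0.29 to 0.46 in the Myo10 comparison. Embryos of different numbers were not compared and litters are not labelled, so these values cannot decide whether the numbers pair embryos. A replicate block gave 1 higher and 1 lower gene in the Disp1 comparison, 1 higher and 45 lower in the Myo10 comparison, 8 neural crest genes higher in each age comparison, and in the Myo10 comparison Ets1 at 0.013 and Erbb3 at 0.0056. In the difference of the effects the block gave Sox10 -0.25, Tfap2b -0.071 and Ets1 -0.017. Depth is unknown, which leaves Sox8 at E8.5 and the low embryos of Sox10 and Tfap2b without a counting error.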
